A study of Mus musculus with 8 samples.

Results

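The Cyp2c family of cytochrome P450 genes was followed in mouse liver through 10 named members, namely Cyp2c29, Cyp2c37, Cyp2c38, Cyp2c39, Cyp2c40, Cyp2c44, Cyp2c50, Cyp2c54, Cyp2c55 and Cyp2c70, of 16593 genes on the array. The members were chosen by symbol, and every probe annotated to one of them was read. Of the 10 members, 8 had a probe in the annotation used, with 13 probes between them, and 7 passed the filter on dim probes and were tested. Cyp2c44 and Cyp2c54 had no probe there and were not analysed. Liver RNA came from male mice of 10 to 12 weeks labelled Fxr+/+ or Fxr-/-, gavaged 2 times a day for 7 days with vehicle or with 30 mg/kg GW4064, a synthetic compound that activates the farnesoid X receptor (FXR). Each of the 4 groups had 2 arrays in the deposit, every one with the RNA of 3 to 4 animals combined. FXR, encoded by Nr1h4, is the nuclear receptor for bile acids. How the Fxr-/- allele was made and the strain of the mice are not given in the sources used here.

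Cytochrome P450 enzymes of the Cyp2c family are haem proteins of the endoplasmic reticulum that use electrons from NADPH to oxidise drugs, steroids and fatty acids, and hepatocytes are their main site in the liver. Several mouse members turn arachidonic acid into epoxides or hydroxy acids, and several are inducible by drugs through the constitutive androstane receptor (CAR, encoded by Nr1i3) and the pregnane X receptor (PXR, encoded by Nr1i2). Cyp2c70 stands apart in function, since it makes the muricholic acids that set the mouse bile acid pool apart from the human one.

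Of the 8 deposited columns, 7 held signals, 4 from Fxr+/+ and 3 from Fxr-/- arrays. The column of Fxr-/- vehicle replicate 2 held whole numbers between 14 and 139 that did not follow the other arrays, and it was left out, so that 1 array stood for that group and was assumed to vary like the others. Nr1h4 was not lost in the group labelled Fxr-/-. Its signals were 3959, 4411, 3328 and 3483 on the Fxr+/+ arrays and 3272, 2048 and 1852 on the Fxr-/- arrays, and whether the probe lies inside the deleted stretch is not known here. GW4064 also changed 1 bile acid gene past the threshold in mice labelled Fxr-/-, the sterol 12-alpha-hydroxylase Cyp8b1, which read 3164 with vehicle and 92.4 and 30.6 with GW4064 (limma adjusted p = 0.0139). Every direction between genotypes below rests on these labels. Of 11 listed hepatocyte markers 10 were measured, and their summed signal lay between 113400 and 197600 on all 7 arrays, with Fgb and Tat under background everywhere and the probe of Alb at 81.6 to 168.7. The number of arrays limits the precision, and p-values measure the spread between these pools.

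Between the genotype labels, 4 members were lower in Fxr-/- liver with treatment accounted for, and none was higher. Cyp2c37, which oxidises arachidonic acid, fell 9.03-fold, and its close paralog Cyp2c50, also an arachidonic acid oxidase, fell 10.1-fold. Cyp2c55, a P450 of colon and of induced liver, fell 6.01-fold, and Cyp2c29, a phenobarbital-inducible hepatic P450 that epoxidises arachidonic acid, fell 2.94-fold. The muricholic acid enzyme Cyp2c70 and the low-signal genes Cyp2c38 and Cyp2c39 did not pass the test. The 4 calls among 7 tested members stand beside 24.1% of all 9766 genes tested that were called in either direction. Of all genes, 12.8% were called lower. With the replicate block, 30.2% were called in either direction. For the same 4 members all Fxr-/- arrays lay under all Fxr+/+ arrays, as was so for 16% of all genes tested. The median log2 difference of the 7 members was -1.56, against 0.06 over all genes tested. In bulk liver, fewer hepatocytes and less RNA per hepatocyte cannot be told apart.

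**Figure D1:**
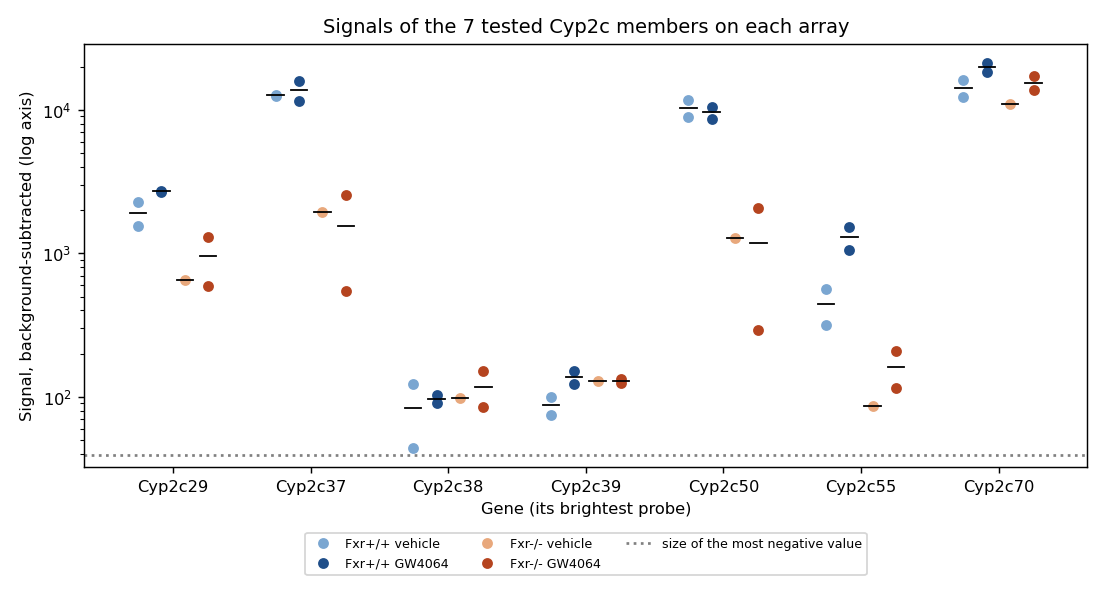
Background-subtracted signal (vertical log axis) of each of the 7 tested members through its brightest probe, with 1 point per array, a short bar at the mean of each group and colours for the 4 groups. The dotted line is the size of the most negative value, 39.5. The Fxr-/- points of Cyp2c37, Cyp2c50, Cyp2c55 and Cyp2c29 lie below all Fxr+/+ points of the same gene, while those of Cyp2c38, Cyp2c39 and Cyp2c70 overlap with them.

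The pair with the largest differences lies at positions 11 and 13 of the 14 genes in the family's cluster. In the RefSeq gene order of assembly GRCm38.p6, 14 protein-coding Cyp2c genes follow each other on chromosome 19 with 0 other coding genes between them, in the order Cyp2c55, Cyp2c65, Cyp2c66, Cyp2c29, Cyp2c39, Cyp2c38, Cyp2c67, Cyp2c68, Cyp2c40, Cyp2c69, Cyp2c37, Cyp2c54, Cyp2c50 and Cyp2c70. Cyp2c44, which RefSeq lists as Cyp2c23, lies 52 coding genes further along the same chromosome. The 4 called members therefore sit at positions 1, 4, 11 and 13 of the cluster. Members that were not called lie between and beside them, at positions 5, 6 and 14.

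**Figure D2:**
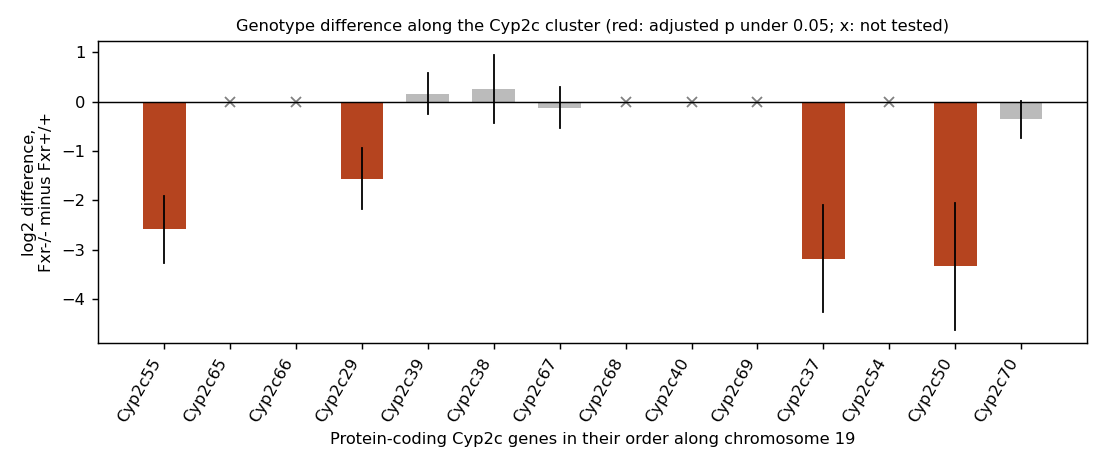
Log2 difference of Fxr-/- minus Fxr+/+ with treatment accounted for (bars, with 95% intervals) for the 14 Cyp2c genes of the cluster, placed by rank along chromosome 19 and not to scale. Red bars passed the threshold, grey bars did not, and a cross marks a gene that was not tested. Cyp2c55, Cyp2c29, Cyp2c37 and Cyp2c50 are red and below 0, with Cyp2c39, Cyp2c38, Cyp2c67 and Cyp2c70 near 0.

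The proximal promoters of 4 members are shown because Cyp2c37, Cyp2c50 and Cyp2c55 were called lower in Fxr-/- liver, and Cyp2c70 was not. Each runs from 250 bases before to 50 after the start of the gene, 5′ to 3′ on the gene's strand, in the RefSeq build GRCm38.p6. Their positions are chr19:39992174-39992473 (+) for Cyp2c37, chr19:40089429-40089728 (+) for Cyp2c50, chr19:39006769-39007068 (+) for Cyp2c55 and chr19:40187237-40187536 (-) for Cyp2c70. Capitals mark the nuclear receptor half-site AGGTCA, the hepatocyte nuclear factor 4 core CAAAGTC and the TATA box TATAAA, each on either strand.
Cyp2c37: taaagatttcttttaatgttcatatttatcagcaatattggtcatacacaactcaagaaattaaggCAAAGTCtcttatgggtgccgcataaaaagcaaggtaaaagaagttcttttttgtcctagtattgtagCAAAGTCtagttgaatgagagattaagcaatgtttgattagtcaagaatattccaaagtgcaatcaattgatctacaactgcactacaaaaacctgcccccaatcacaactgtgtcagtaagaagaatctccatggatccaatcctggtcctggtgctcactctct
Cyp2c50: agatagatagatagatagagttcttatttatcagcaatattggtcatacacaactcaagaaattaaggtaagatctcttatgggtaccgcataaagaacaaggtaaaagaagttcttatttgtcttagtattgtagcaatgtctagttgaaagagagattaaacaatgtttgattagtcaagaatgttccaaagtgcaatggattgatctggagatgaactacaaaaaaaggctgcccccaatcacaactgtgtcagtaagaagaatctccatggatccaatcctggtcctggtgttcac
Cyp2c55: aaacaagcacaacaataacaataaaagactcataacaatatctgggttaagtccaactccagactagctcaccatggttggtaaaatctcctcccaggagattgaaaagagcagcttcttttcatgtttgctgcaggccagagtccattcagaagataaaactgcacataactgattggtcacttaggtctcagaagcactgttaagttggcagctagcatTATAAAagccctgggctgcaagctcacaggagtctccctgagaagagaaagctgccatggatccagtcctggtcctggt
Cyp2c70: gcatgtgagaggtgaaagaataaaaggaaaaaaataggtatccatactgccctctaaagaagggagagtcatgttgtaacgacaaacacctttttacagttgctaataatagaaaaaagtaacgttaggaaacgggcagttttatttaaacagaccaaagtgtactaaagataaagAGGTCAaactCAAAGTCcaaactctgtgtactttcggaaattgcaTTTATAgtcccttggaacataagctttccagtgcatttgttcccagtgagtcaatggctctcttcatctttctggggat

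The promoters of Cyp2c37 and Cyp2c50 were 86.6% identical in a global alignment, the highest of the 28 pairs among 8 members with a promoter in RefSeq. The next pairs were Cyp2c38 with Cyp2c39 at 78.1% and Cyp2c29 with Cyp2c39 at 75.7%. Cyp2c70 shared between 50.6% and 53% with the others. This was not particular to it, as Cyp2c40 shared 45.3% to 52.8% and Cyp2c55 shared 51% to 57.1%. The near-identical pair nevertheless differed in the marked letters. CAAAGTC occurred 2 times in Cyp2c37 and 0 times in Cyp2c50 and Cyp2c55, 1 time in Cyp2c70, Cyp2c29, Cyp2c40 and each start of Cyp2c39, and in 4.44% of 32851 RefSeq mouse promoters of the same 300 bases. AGGTCA occurred in Cyp2c70 and Cyp2c29 and at 1 of the 2 starts of Cyp2c39, and in 16.3% of all promoters. TATAAA occurred in Cyp2c55, Cyp2c70, Cyp2c29, Cyp2c38 and Cyp2c40, at 1 start of Cyp2c39, and in 13.6% of all promoters. On both strands, AGGTCANTGACCT, the inverted repeat that FXR is known to bind (0.00913% of all promoters), the direct repeats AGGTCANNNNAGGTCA (0.0152%) and AGGTCANAGGTCA (0.0396%), and the STAT5 letters TTCNNNGAA (8.3%) were in no member's window. The forkhead letters TGTTTAC were in Cyp2c38 and Cyp2c39 (3.65% of all promoters). A match or its lack describes these letters in this window only.

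Cyp2c37 was read by 3 probes. Its brightest probe gave 12531.5 and 12714 on the Fxr+/+ vehicle arrays, 15987 and 11592 on the Fxr+/+ GW4064 arrays, 1955 on the Fxr-/- vehicle array, and 2564 and 544 on the Fxr-/- GW4064 arrays. All Fxr-/- pools lay far under every Fxr+/+ pool, and those given GW4064 also lay far from each other. With treatment accounted for, the log2 difference came to -3.17 (SE 0.47, limma adjusted p = 0.00225). The second probe gave -3.23, and the third was dim throughout, at 52.6 to 75.8 on Fxr+/+ and 12.3 to 18.6 on Fxr-/- arrays. Since the third was within the range of the background on every Fxr-/- array, its level there is only bounded, and it was at least 1.86-fold higher in Fxr+/+ under vehicle and at least 1.5-fold higher under GW4064.

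Cyp2c50 showed the same arrangement. Its brighter probe gave 8860 and 11683 in Fxr+/+ vehicle, 10534 and 8635 in Fxr+/+ GW4064, 1276.5 in the Fxr-/- vehicle array, and 2075 and 294 in the Fxr-/- GW4064 arrays. Every Fxr-/- array lay far under the lowest Fxr+/+ array. The log2 difference was -3.33 (SE 0.558, limma adjusted p = 0.00392). Its second probe, at 52.5 to 92.1 on Fxr+/+ arrays and -6.2 to -0.3 on Fxr-/- arrays, was at least 1.99-fold higher in Fxr+/+ under vehicle and at least 1.61-fold higher under GW4064. Cyp2c37, Cyp2c50 and the unmeasured Cyp2c54 are close paralogs, probe sequences were not used here, and signal shared between these probes was not tested.

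The 2 Fxr-/- pools given GW4064 differed more in these genes than in nearly all others. From replicate 1 to replicate 2 the gap was 6.74-fold for Cyp2c50, a size exceeded by 0.0205% of all genes tested, and 4.61-fold for Cyp2c37, exceeded by 0.0717%. Cyp2c29 differed 2.16-fold between them (2.38% of genes exceeded it) and Cyp2c55 1.7-fold (7.96%), each lower in replicate 2, whereas Cyp2c70 was 1.23-fold higher in replicate 2 (45.5%) and Cyp2c39 differed by 1.06-fold. Over all genes the median gap between these pools was 0.27 on the log2 scale. The summed hepatocyte markers were 155000 and 113400 on the same arrays and the 10 pericentral markers 47320 and 26880, each lower in replicate 2, and their part in the gap was not tested. Without replicate 2 the log2 difference between the labels was -2.54 for Cyp2c37 and -2.59 for Cyp2c50, and without replicate 1 it was -3.64 and -3.96, all past the threshold.

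Cyp2c55 had the smallest genotype p-value of the 7 tested members. Its signals were 564 and 319 in Fxr+/+ vehicle, 1529 and 1054.5 in Fxr+/+ GW4064, 85.8 in Fxr-/- vehicle, and 208 and 116 in Fxr-/- GW4064. The highest Fxr-/- array thus lay under the lowest Fxr+/+ array. Fxr-/- minus Fxr+/+ came to -2.59 on the log2 scale (SE 0.298, limma adjusted p = 0.000661).

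Cyp2c29 moved less. Its signals were 1538 and 2270.5 in Fxr+/+ vehicle, 2689 and 2705.5 in Fxr+/+ GW4064, 649 in Fxr-/- vehicle, and 1305.5 and 595 in Fxr-/- GW4064. The groups did not overlap, but the higher Fxr-/- array came close to the lowest Fxr+/+ array. The log2 difference was -1.56 (SE 0.27, limma adjusted p = 0.00464). A second probe annotated to this gene lay between -33.1 and -21.9 on all arrays and measured nothing above background.

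Cyp2c70, which hydroxylates chenodeoxycholic acid on the way to muricholic acids, kept overlapping signals. They were 16131 and 12273 in Fxr+/+ vehicle, 21104 and 18361.5 in Fxr+/+ GW4064, 10926 in Fxr-/- vehicle, and 13814 and 17055 in Fxr-/- GW4064. The Fxr-/- vehicle array was the lowest of the 7, while the Fxr-/- GW4064 arrays lay within the range of the 4 Fxr+/+ arrays. Fxr-/- minus Fxr+/+ came to -0.36 on the log2 scale (SE 0.163, limma adjusted p = 0.148), with a 95% interval from -0.73 to 0.01.

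The remaining members gave low signals or none. Cyp2c39, which is known to hydroxylate retinoic acid, read 99 and 75.1 in Fxr+/+ vehicle, 150 and 123 in Fxr+/+ GW4064, 128 in Fxr-/- vehicle, and 134 and 125 in Fxr-/- GW4064. Cyp2c38, its neighbour, read between 44 and 122 on Fxr+/+ arrays and between 85.3 and 150 on Fxr-/- arrays. Neither differed past the threshold between the labels. The log2 difference was 0.16 for Cyp2c39 (95% interval -0.25 to 0.57) and 0.25 for Cyp2c38 (-0.43 to 0.94). Both probes of Cyp2c40, an arachidonic acid hydroxylase, lay between -24.6 and 5.4 and were not above background on any array. Of the other Cyp2c genes in the annotation, Cyp2c65 was also within the background. Cyp2c67 read 5606 to 8246 on Fxr+/+ and 5635 to 7599 on Fxr-/- arrays through its brighter probe (log2 difference -0.12, limma adjusted p = 0.661). Its second probe read 660 to 1276 on Fxr+/+ arrays, 640 on the Fxr-/- vehicle array, and 954 and 160.5 on the Fxr-/- GW4064 arrays. The log2 difference of that probe was -0.76 (SE 0.529).

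**Figure D3:**
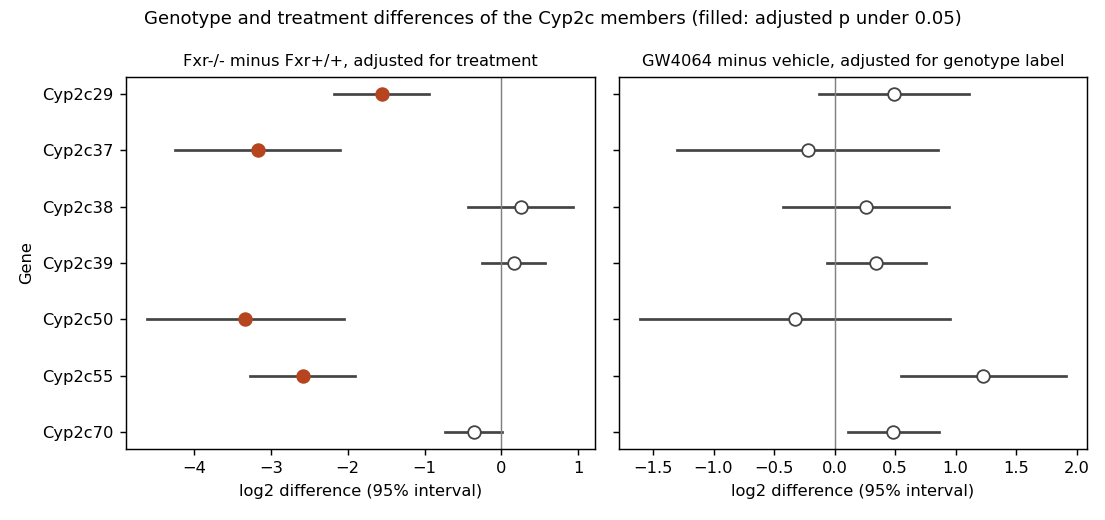
Log2 differences (points) with 95% intervals (lines) of the 7 tested members, for genotype with treatment accounted for at left and for GW4064 with genotype label accounted for at right; the axes differ in range. Filled points passed the threshold of 0.05 after adjustment. At left Cyp2c29, Cyp2c37, Cyp2c50 and Cyp2c55 are filled, from -3.33 to -1.56, and at right no point is filled.

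Split by treatment, the genotype difference was called in more members under GW4064 than under vehicle, where 1 Fxr-/- array stood against 2 Fxr+/+ arrays. Under GW4064 the same 4 members were called lower, against 14.6% of all genes called (20.5% with the replicate block). Cyp2c37 fell 11.3-fold (log2 -3.50, SE 0.606, limma adjusted p = 0.00922), Cyp2c50 fell 11.9-fold, Cyp2c55 fell 7.48-fold and Cyp2c29 fell by 1.59 on the log2 scale. Under vehicle 1 member was called, against 6.85% of all genes. This was Cyp2c55, which fell by 2.11 on the log2 scale (SE 0.442, limma adjusted p = 0.0318). Cyp2c37, Cyp2c50 and Cyp2c29 had log2 differences of -2.68, -2.98 and -1.50 under vehicle, with limma adjusted p-values of 0.0746, 0.0967 and 0.0922. With the replicate number as a block, 2 members were called under vehicle, as Cyp2c37 then had a log2 difference of -3.12 (limma adjusted p = 0.0328). Of all genes, 9.93% were called under vehicle with the block, against 6.85% without it. The difference between the treatments was tested as the interaction given below and was called in no member.

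Leaving out single arrays changed these split calls. Under GW4064, fewer members were called without Fxr+/+ GW4064 replicate 1, Fxr+/+ GW4064 replicate 2 or Fxr-/- GW4064 replicate 2. Each of these fits had 1 array left in a group, and a lower share of all genes was called in them too. Cyp2c29 lost its call in each, with log2 differences of -1.60, -1.59 and -1.04 in that order. Without Fxr-/- GW4064 replicate 2 the log2 difference under GW4064 was -2.40 for Cyp2c37 and -2.19 for Cyp2c50. Without Fxr-/- GW4064 replicate 1 it was -4.61 and -4.94. Under vehicle, Cyp2c55 lost its call without Fxr+/+ vehicle replicate 1 and without either Fxr+/+ GW4064 array. A lower share of all genes was called in those fits too. More members were called without either Fxr-/- GW4064 array, where the share of all genes called was slightly higher. In the comparison with treatment accounted for, all 4 calls held with each of the 7 arrays left out in turn, beside 15% to 24.1% of all genes. There, testing all genes with no filter on dim probes left Cyp2c55 as the 1 call, beside 9.21% of all genes. The limma adjusted p-values of the other 3 were then 0.0522 to 0.0708.

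The second question was whether GW4064 changed these genes. No member passed the threshold in any GW4064 comparison in limma. In Fxr+/+ liver 0 of 7 members were called, against 0.0205% of all genes (0.0512% with the replicate block). An unadjusted p under 0.05 was found for 494 of all 9766 genes tested and for 2 members. Cyp2c55 was 1292 ± 336 (SD, n = 2) with GW4064 and 441 ± 173 (SD, n = 2) with vehicle, and both GW4064 arrays lay above both vehicle arrays. Its log2 change was 1.55 (SE 0.361, 2.92-fold, limma adjusted p = 0.624). Cyp2c39, the other one, had a log2 change of 0.57 (SE 0.209, limma adjusted p = 0.968), again with both GW4064 arrays above both vehicle arrays. The share of all genes with such a separation was not counted, so it is no result about these members.

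In Fxr-/- liver 0 members were called, against 0.0717% of all genes (0.0307% with the replicate block), and 0 had an unadjusted p under 0.05. Cyp2c55 had a log2 change of 0.76 (SE 0.442, limma adjusted p = 0.686), from 85.8 on the single vehicle array to 208 and 116 with GW4064. Cyp2c70 had a log2 change of 0.49 in Fxr-/- liver and 0.48 in Fxr+/+ liver (limma adjusted p = 0.66 and 0.989), and in each label both GW4064 arrays lay above every vehicle array of that label. How many of all genes were separated in this way was not counted, and 1 vehicle array stood for Fxr-/-. With the genotype label accounted for, 0 members were called, against 0.0717% of all genes (0.0614% with the replicate block). An unadjusted p under 0.05 was found for 771 of all 9766 genes tested, and for Cyp2c55 and Cyp2c70 among the members. Their log2 changes were 1.23 (95% interval 0.55 to 1.91, limma adjusted p = 0.326) and 0.49 (0.11 to 0.86, limma adjusted p = 0.488). Cyp2c37 and Cyp2c50 had values of -0.22 and -0.33, with intervals from -1.30 to 0.86 and from -1.61 to 0.95.

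The difference between the GW4064 effects of the labels was called in 0 members and in 0% of all genes by limma, with 0 members and 604 genes at an unadjusted p under 0.05. For Cyp2c55 it was -0.79, with a 95% interval from -2.12 to 0.54, and for Cyp2c70 it was 0.01, with an interval from -0.82 to 0.83. These intervals are wide, and they do not show that GW4064 acted alike in both labels.

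Beyond Cyp2c, many other Cyp2 genes were lower in Fxr-/- liver. Of 19 tested genes of 34 listed, 12 fell with treatment accounted for and 0 rose, with a median log2 difference of -1.33. The called share was 63.2%, beside 24.1% of all genes called and 12.8% called lower, and the median of all genes was 0.06. The 12 include Cyp2d12, at -7.6 to 31.7 on all arrays, and Cyp2g1, at -10.2 to 40.6, both near the background. They also include Cyp2u1, at 49.2 to 91.8 on Fxr+/+ and 2.1 to 22.9 on Fxr-/- arrays. These genes passed the filter on dim probes through Fxr+/+ arrays alone, which favours a call as lower. Cyp2f2, a periportal P450, read 13689 to 14565 on Fxr+/+ and 1116 to 1818 on Fxr-/- arrays (log2 -3.36, limma adjusted p = 1.68e-05). Cyp2a12, a steroid hydroxylase, read 7723 to 10748 and 260.5 to 606 (log2 -4.45, limma adjusted p = 2.8e-05). Cyp2d13 read 237 to 513 on Fxr+/+ arrays and was within the range of the background, at -5.5 to 30.3, on all Fxr-/- arrays. Among the 7 tested P450 partners and haem supply genes, 1 fell, the cytochrome b5 reductase Cyb5r3 (log2 -1.12, limma adjusted p = 0.00236), and the list's median was -0.32.

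Of 16 tested regulators known to act on Cyp2c genes, 3 fell and 2 rose, with a median of -0.25. The called share of 31.2% was near the 24.1% of all genes, so the count is no result about the list. Nr1i3, which encodes CAR, read 859, 1240, 772 and 879.5 on the Fxr+/+ arrays and 51.9, 73.5 and 11.2 on the Fxr-/- arrays. The groups did not overlap, and the log2 difference was -4.03 (SE 0.368, limma adjusted p = 0.000217). Nr1i2, which encodes PXR, had a log2 difference of -0.12 and did not pass. Hnf4a, a hepatocyte master regulator, fell by 0.88 (limma adjusted p = 0.00866), and Nr1h4 itself fell by 0.62 (limma adjusted p = 0.0211). Cux2, a repressor known from female liver, read 4.4 to 42.8 on Fxr+/+ and 51.8 to 233 on Fxr-/- arrays (limma adjusted p = 0.00222). Foxa1 had a log2 difference of 0.72 (limma adjusted p = 0.015) and is named because it completes the count.

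**Figure D4:**
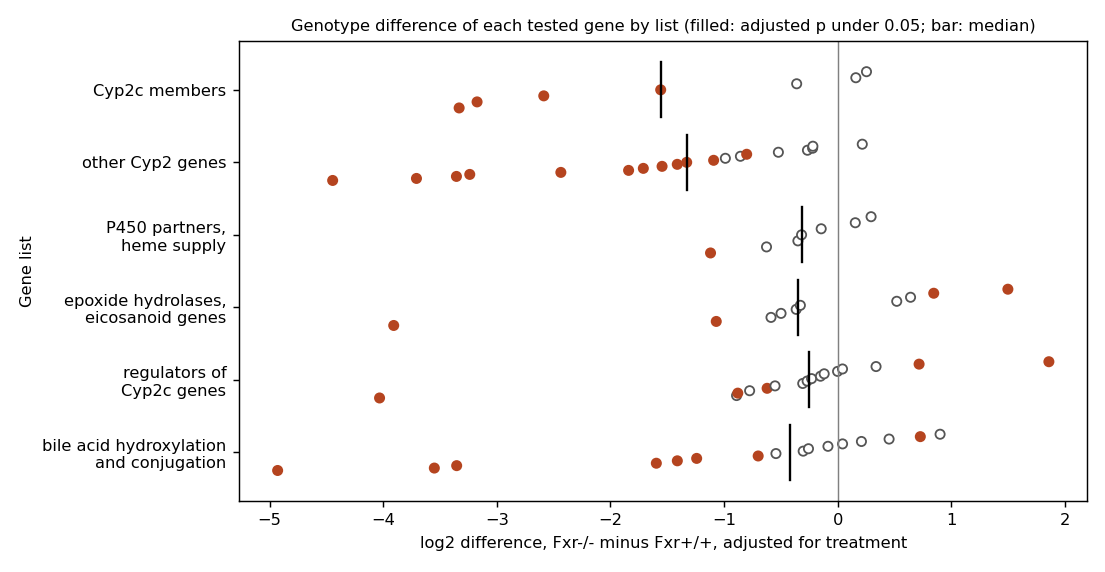
Log2 difference of Fxr-/- minus Fxr+/+ with treatment accounted for (horizontal axis), with 1 circle per tested gene in each of 6 lists and a bar at each list's median. Filled circles passed the threshold. The medians are -1.56 for the Cyp2c members, -1.33 for other Cyp2 genes and between -0.42 and -0.25 for the other 4 lists.

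Of 10 tested genes for epoxide hydrolysis and eicosanoid handling, 2 fell and 2 rose, with a median of -0.35, a called share of 40% beside 24.1% of all genes. Pla2g12b, a secreted phospholipase A2 family member, read 805 to 1095.5 on Fxr+/+ and 33.1 to 80.2 on Fxr-/- arrays (log2 -3.91, limma adjusted p = 3.56e-05). Cyp4a14, a fatty acid omega-hydroxylase, rose by 1.50 (limma adjusted p = 0.00326), and its relative Cyp4a12b rose by 0.85 (limma adjusted p = 0.0138; named to complete the count). Alox12, the platelet-type lipoxygenase, was dim on the Fxr+/+ arrays, at 47.2 to 72.9, and within the range of the background on the Fxr-/- arrays, at 10 to 29.8. Of 16 tested genes for bile acid hydroxylation and conjugation beside Cyp2c70, 7 fell and 1 rose, with a median of -0.42, a called share of 50% beside the same 24.1%. The conjugating enzymes Baat (log2 -3.55, limma adjusted p = 2.8e-05) and Slc27a5 (-3.35, limma adjusted p = 0.000193) and the steroid dehydrogenase Hsd3b7 (-1.60, limma adjusted p = 0.000474) had the smallest p-values among them. The rise was of Amacr, a racemase of side-chain oxidation (limma adjusted p = 0.0134, named to complete the count). It read 20.1 to 45 on Fxr+/+ and 37.8 to 90.7 on Fxr-/- arrays, partly within the range of the background.

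Some markers of cell types and zones differed between the genotype labels as well. Of 6 measured periportal markers of 9 listed, 1 fell and 1 rose. Their summed signal lay at 30760 to 36670 in Fxr+/+ and 14710 to 24760 in Fxr-/- arrays, but without Cyp2f2 the sums overlapped, at 16190 to 22800 and 13590 to 23450. Of 10 pericentral markers 3 fell and 0 rose, and their sums overlapped, at 49020 to 62100 and 26880 to 49410. All 6 measured neutrophil markers of 7 listed fell in Fxr-/- liver, from a sum of 1417 to 3520 down to 234.8 to 1008. No periportal, pericentral or neutrophil marker was within the background on every array. The hepatocyte sum was 179800 to 197600 in Fxr+/+ and 113400 to 166600 in Fxr-/- arrays, with 2 of 9 tested markers lower and 1 higher. The called shares were 33.3% of periportal, 30% of pericentral, 33.3% of hepatocyte and 100% of neutrophil markers. Apart from the neutrophil markers, these shares are near the 24.1% of all genes called, so their counts are no result about the lists. Cyp2f2 stands in both the periportal list and the other Cyp2 genes. The part of these shifts in the Cyp2c differences was not tested.

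The tested genes outside the family whose log2 signals ran closest to a member were named by the root mean square distance over the 7 arrays, after each gene was centred on its own mean. For Cyp2c55 these were Gsta1, a glutathione transferase, at 0.219, and Spats2l at 0.331, beside an SD of 1.49 of Cyp2c55 itself. Gsta1 read 2169, 1523, 5180 and 3685 on the Fxr+/+ arrays and 325, 781 and 649 on the Fxr-/- arrays, so that it was high and low on nearly the same arrays as Cyp2c55. For Cyp2c29 the closest were Sh3bp2 at 0.213 and Gbp11 at 0.223, beside an SD of 0.905, and for Cyp2c70 they were Rad51c at 0.0802 and Gpx7 at 0.081, beside an SD of 0.335. Rad51c read under 39.5 on 6 of the 7 arrays, Gbp11 on 5 and Spats2l on 3, so their distances rest partly on values within the background.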

How the data were processed

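Liver RNA of 4 groups was measured on Illumina bead arrays of 25697 probes. In 7 columns the values deposited by the authors were linear intensity values, one per probe. They were background-subtracted and quantile normalized before deposit, as judged from negative values of a size up to 39.5 and from sorted columns that differ by at most 0.5. The software is not given in the labels or files. The deposited column of Fxr-/- vehicle replicate 2 is of unknown unit (whole numbers, median 39) and was left out, since its highest Spearman correlation with an array was 0.0559. No detection p-values were used, and the precision is limited by the number of arrays.

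Probes were named through the platform annotation. A probe was kept when it exceeded its array's median on at least 2 arrays, and the brightest kept probe on average stood for its gene, which gave 9766 genes. Signals were converted as log2(max(signal, 0) + 16), so fold changes of dim genes are understated. Where all arrays of a group read under 39.5, the probe counts as within the background in that group and its ratio is a bound.

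A fit of the 4 group means (3 residual and 4.55 prior degrees of freedom) and an additive fit of genotype label and treatment (4 and 4.23) were made in limma 3.58.1 (R 4.3.3). P-values were two-sided and adjusted by Benjamini-Hochberg over all genes, with a threshold of 0.05. The fits were tested on simulated data. Promoters from RefSeq were searched for motifs and aligned with Biopython 1.88 (match 1, mismatch -1, gap -2 to open and -0.5 to extend), and figures were drawn with matplotlib 3.10.9.

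The labels give the groups shared replicate numbers and no shared source. Deviations of same-numbered arrays from their group means correlated over genes at 0.242, 0.375 and 0.233 in the 3 pairs of groups with 2 arrays. The numbers may therefore be a pairing, from the data alone and with 2 numbers in all. The reported fits have no block and leave such a pairing out of account. An alternative fit took the replicate number as a block, and its value stands beside a result where it changes the call or a count.

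All members, and up to 3 genes per list with the smallest p among those called, were named. The members and lists were chosen with earlier results of these data known. Alternatives were offsets of 1 and 100, added quantile normalization, median centring, no filter, a stricter filter, the mean of a gene's probes, only the arrays compared, a replicate block and leaving out each array in turn.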

Additional observations from a re-analysis of the deposited data

How the results depend on the processing

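With treatment accounted for, 4 members were called lower in Fxr-/- liver under every alternative run except the test of all genes with no filter, which called 1. That test called 9.21% of all genes, and the other alternatives called 15% to 30.2%, beside 24.1% in the reported fit. Under GW4064, 4 were called beside 14.6% of all genes, against 0 with no filter (2.31% of all genes) and 2 with an offset of 1 (9.47%). Fewer were called with some arrays left out, where the share of all genes called was lower too. Under vehicle, 1 was called beside 6.85% of all genes, against 3 with the mean of a gene's probes (6.89%) and 0 with no filter (4.1%). An offset of 1 called 0 (5.46%), an offset of 100 called 2 (9.29%), and only the arrays compared called 3 (4.07%). With an array left out, the number of members called moved both ways. The cause of these shifts was not tested. For GW4064, and for the difference between its effects, 0 members were called under each alternative that gave a value. Added quantile normalization and median centring changed no count of members, but the deposited values were already quantile normalized, so these alternatives could change little.

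With the replicate block, 4 members were called with treatment accounted for, 4 under GW4064 and 2 under vehicle (Cyp2c37 and Cyp2c55). It changed no other call of a member. With it, 30.2% of all genes were called with treatment accounted for, 20.5% under GW4064 and 9.93% under vehicle.

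No value that passed the threshold changed sign. Values that had not passed turned with the mean of a gene's probes (Cyp2c37 at -0.073 for GW4064 in Fxr+/+ liver) and with the replicate block (Cyp2c38 at 0.23 for the difference between the GW4064 effects and -0.025 for genotype under vehicle). Others turned with an array left out, as log2 values within these ranges. For GW4064 in Fxr+/+ liver, Cyp2c37 ran from -0.12 to 0.34, Cyp2c38 ran from -0.30 to 0.91 and Cyp2c50 ran from -0.29 to 0.11. For GW4064 in Fxr-/- liver, Cyp2c29 ran from -0.12 to 0.99, Cyp2c37 ran from -1.82 to 0.39, Cyp2c38 ran from -0.17 to 0.55, Cyp2c39 ran from -0.035 to 0.055 and Cyp2c50 ran from -2.06 to 0.69. For the difference between the GW4064 effects, Cyp2c29 ran from -0.65 to 0.47, Cyp2c37 ran from -1.92 to 0.28, Cyp2c38 ran from -0.72 to 0.49, Cyp2c50 ran from -1.97 to 0.79 and Cyp2c70 ran from -0.19 to 0.20. For genotype under vehicle, Cyp2c38 ran from -0.28 to 0.93. For genotype under GW4064, Cyp2c38 ran from -0.15 to 0.57 and Cyp2c39 ran from -0.19 to 0.067. For GW4064 with genotype accounted for, Cyp2c37 ran from -0.53 to 0.20, Cyp2c38 ran from -0.055 to 0.55 and Cyp2c50 ran from -0.75 to 0.17. For genotype with treatment accounted for, Cyp2c39 ran from -0.064 to 0.28. With 1 array in the Fxr-/- vehicle group, no fit without it gives a difference under vehicle or a GW4064 effect in Fxr-/- liver. Signals within the background limit Cyp2c40 and the dim probes of Cyp2c37 and Cyp2c50.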
